A study of Mus musculus with 16 samples.

Results

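Goblet cells fill and renew the mucus that covers the intestinal epithelium. Their main secreted product is the gel-forming mucin Muc2, which is folded in the endoplasmic reticulum, heavily O-glycosylated, packed into granules and released together with smaller proteins that set how the gel behaves. Membrane mucins are a separate class that stays anchored in the epithelial surface and builds the glycocalyx, mostly on enterocytes. The genes described here were 10, picked by symbol from the 46078 genes of the deposited count table. They are the secreted products Muc2, Tff3, Agr2, Fcgbp, Clca1, Zg16 and Spink4, the transcription factor Spdef that drives goblet cell maturation, and the membrane mucins Muc13 and Muc3. All 10 passed the filter on low counts in every comparison.

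Ileum mucosa was sequenced from 16 mice of C57Bl/6 background, in 4 groups of 4 by labelled sex and genotype, WT or Slfn3 knockout (labelled Slfn 3 KO, Slfn3KO here). The genotypes were littermates by the study's methods, and the labels name no treatment. The labels give an age of 8 weeks, whereas the methods give an older range for mucosa isolation, and Slfn3KO mice are treated as 1 knockout line. Each library held between 20823279 and 30813117 counts, and levels are given in CPM, counts scaled to a library total that was first multiplied by its TMM factor (0.816 to 1.21, a correction for composition). On this scale 3 counts, used as the floor of detection, corresponded to between 0.102 and 0.150 CPM. Libraries 1 to 4 of a group carry the replicate number of their label. In 4 of the 16 libraries, WT libraries 3 and 4 of each sex, Xist and Ddx3y went against the labelled sex, while both transcripts followed the label in the other 12. Male and female are the labelled sexes throughout, and the results that lean on these 4 libraries are given with and without them where named below. The targeted gene, Slfn3, was between 0 and 0.0812 CPM in the Slfn3KO libraries and between 0 and 0.654 CPM in the WT libraries, so at this depth the knockout could barely be checked. Epithelial markers (Vil1 the most abundant) summed to between 11790.1 and 19979.7 CPM in each library, and those of the pancreas to at most 0.206 CPM.

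The upstream sequences of 4 members are shown because the members formed 2 sets across the mice, described further on: Muc2 and Fcgbp each followed Tff3 and Zg16, although not clearly each other, and Agr2 followed Spdef. Each holds the 250 bases before the start of the gene in RefSeq (GRCm38.p6), read 5′ to 3′ along the gene's strand. Capitals mark matches on either strand to 5 motifs. The E-box of the kind bound by ATOH1 was CAGCTG, the CDX2 motif was TTTATNG, the FOXA motif was TGTTTNC, the SPDEF motif was CCGGAT and the TATA box was TATAAA.
Muc2 (chr7:141690090-141690339, plus strand): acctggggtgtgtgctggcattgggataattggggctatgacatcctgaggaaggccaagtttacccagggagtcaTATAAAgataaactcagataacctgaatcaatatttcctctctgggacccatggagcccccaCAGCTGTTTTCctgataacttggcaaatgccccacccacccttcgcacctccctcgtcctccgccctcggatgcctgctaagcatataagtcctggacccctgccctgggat
Fcgbp (chr7:28070986-28071235, plus strand): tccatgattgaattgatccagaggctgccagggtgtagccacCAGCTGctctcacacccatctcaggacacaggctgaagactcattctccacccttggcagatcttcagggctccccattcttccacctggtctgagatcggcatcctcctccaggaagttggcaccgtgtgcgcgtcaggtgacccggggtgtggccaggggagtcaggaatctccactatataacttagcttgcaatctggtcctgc
Agr2 (chr12:35992675-35992924, plus strand): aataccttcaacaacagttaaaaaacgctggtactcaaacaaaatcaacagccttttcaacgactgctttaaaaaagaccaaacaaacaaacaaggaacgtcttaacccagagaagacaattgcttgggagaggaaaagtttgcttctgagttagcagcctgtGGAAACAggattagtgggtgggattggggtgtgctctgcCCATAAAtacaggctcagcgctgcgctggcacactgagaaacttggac
Spdef (chr17:27728952-27729201, minus strand): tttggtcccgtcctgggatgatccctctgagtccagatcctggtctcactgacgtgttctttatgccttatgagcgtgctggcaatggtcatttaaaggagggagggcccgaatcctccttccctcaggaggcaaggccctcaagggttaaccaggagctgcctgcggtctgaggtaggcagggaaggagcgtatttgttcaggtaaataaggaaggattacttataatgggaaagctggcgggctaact
In Muc2 the E-box match began 112 bases and the FOXA match 108 bases before the start, overlapping each other, and a match to the letters TATAAA began 174 bases before it. Variants of the TATAAA letters were not searched. Fcgbp held an E-box 208 bases before the start, Agr2 held a CDX2 match 48 and a FOXA match 87 bases before it, and Spdef held none of these letters. Among all 32851 promoters of the reference, windows of the same length held the E-box in 13.001%, the FOXA motif in 17.8%, the TATA box in 12.4%, the CDX2 motif in 9.81% and the SPDEF motif in 4.94%. A match describes the letters of these windows and is not evidence of a bound site. Of the 10 members, 6 had an entry in the promoter table.

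The mucus genes were among the abundant transcripts of the mucosa. Together the 10 members took between 2.39% and 3.25% of all counts of a library, without the TMM factor, with 2.62% to 3.14% in Slfn3KO and 2.39% to 3.25% in WT mice. Compared between genes per kilobase of counted exon, Zg16, a lectin-like protein that binds bacterial wall glycans, stood highest at 8455 ± 2333 CPM per kb (SD, n = 16 mice). Next came Tff3, the trefoil peptide secreted beside Muc2, at 3501 ± 524 CPM per kb. Muc3 (1400 ± 234), Muc13 (1355 ± 390), Spink4 (1081 ± 339) and Clca1 (981 ± 133 CPM per kb) followed, with neighbours closer than their spread over the mice. Lower again were Muc2 (576 ± 74.9), Fcgbp (548 ± 102) and Agr2 (464 ± 101 CPM per kb), which also lay within each other's spread. Spdef stood lowest at 13.008 ± 2.32 CPM per kb, with 432 to 1018 counts in each library. These levels depend on the exon models of the table: Zg16 was counted over 636 bases, although a longer GENCODE M21 model reaches from 127050156 to 127087328 on chromosome 7. Muc3 was counted over 1943 bases.

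The members also differed in how stable they were from mouse to mouse. Over the 16 mice the coefficient of variation of the CPM level was 13.002% for Muc2 and 13.5% for Clca1, the protease that processes the Muc2 gel. It was 27.6% for Zg16, 28.8% for Muc13 and 31.3% for Spink4, a small protease inhibitor of secretory cells. Muc2, the structural mucin itself, thus stayed within a narrow range of 3332 to 5339 CPM, while the Spink4 level spanned 281 to 837 CPM.

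**Figure D1:**
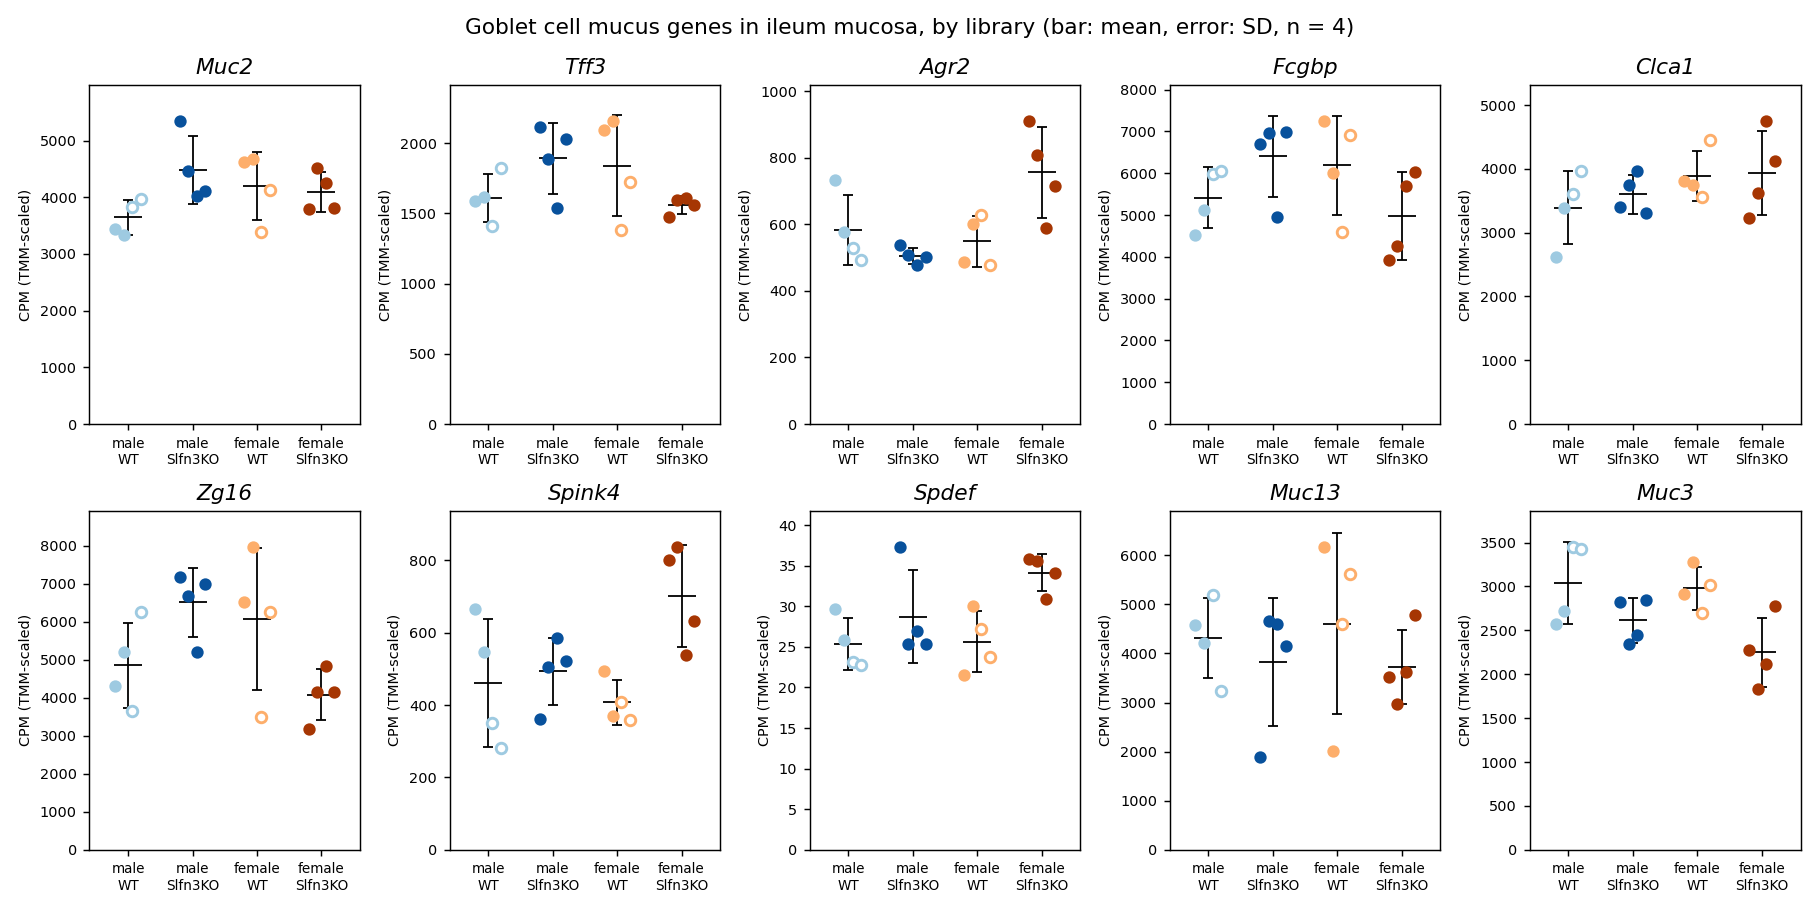
Level of each of the 10 genes in TMM-scaled CPM (vertical axis, starting at 0) in the 4 groups of labelled sex and genotype (horizontal axis). Points are libraries, open points are WT libraries 3 and 4 whose sex transcripts go against the label, and bars give the mean with its SD (n = 4). Spink4 and Spdef lay above female WT in all 4 female Slfn3KO libraries.

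The first comparison was of all Slfn3KO with all WT mice, with sex as a covariate. None of the 10 members passed the threshold, an adjusted p-value under 0.05 (edgeR's quasi-likelihood test, Benjamini-Hochberg over all 14822 genes tested) with at least 1.5-fold, and neither did any other gene (0%). Over all genes 1770 had an unadjusted p-value under 0.05, and DESeq2's Wald test, used as an alternative, called 78, none of them a member. The members divided evenly, 5 higher and 5 lower in Slfn3KO mice, with a median log2 fold change of 0.022 beside -0.0037 over all genes. Of the 10 members, 3 (Spink4, Spdef and Muc3) had an unadjusted p-value under 0.05, where 11.9% of all genes tested passed. No member separated the genotypes without overlap, and 0.027% of all genes did. Without the WT libraries 3 and 4, 0 of the 10 members had an unadjusted p-value under 0.05, against 5.8% of genes. Since the RNA is from whole mucosa, fewer goblet cells and less RNA per goblet cell cannot be told apart in any of these values.

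The labelled sexes were then compared separately. In females, 4 of 10 members (Agr2, Spink4, Spdef and Muc3) had an unadjusted p-value under 0.05, where 17.1% of 14064 genes (2410) did, and with edgeR no member or other gene passed the adjusted threshold (0%), while DESeq2 called 530 genes. In males no member had one, where 3.84% of 14124 genes (542) did, and again no member or other gene passed the adjusted threshold with edgeR (0%), while DESeq2 called 20 genes. The median log2 fold change of the members was -0.14 in females and 0.14 in males, beside -0.0098 and -0.0016 over all genes tested. The level of 2 members, Spink4 and Spdef, did not overlap between the female groups, as in 8.16% of all genes, and the level of 1 member, Muc2, did not overlap between the male groups, as in 2.34%. With total counts alone, Spink4 and Spdef again did not overlap in females (6.24% of all genes), but the Muc2 groups overlapped in males. Without the WT libraries 3 and 4, 4 of 10 members had an unadjusted p-value under 0.05 in females, beside 24% of genes. They were Spdef and 1 secreted member, both higher, and 2 secreted members, both lower, and Muc3 was not among them. In males 1 of 10 members then had one, a secreted member that was lower, beside 7.14% of genes.

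**Figure D2:**
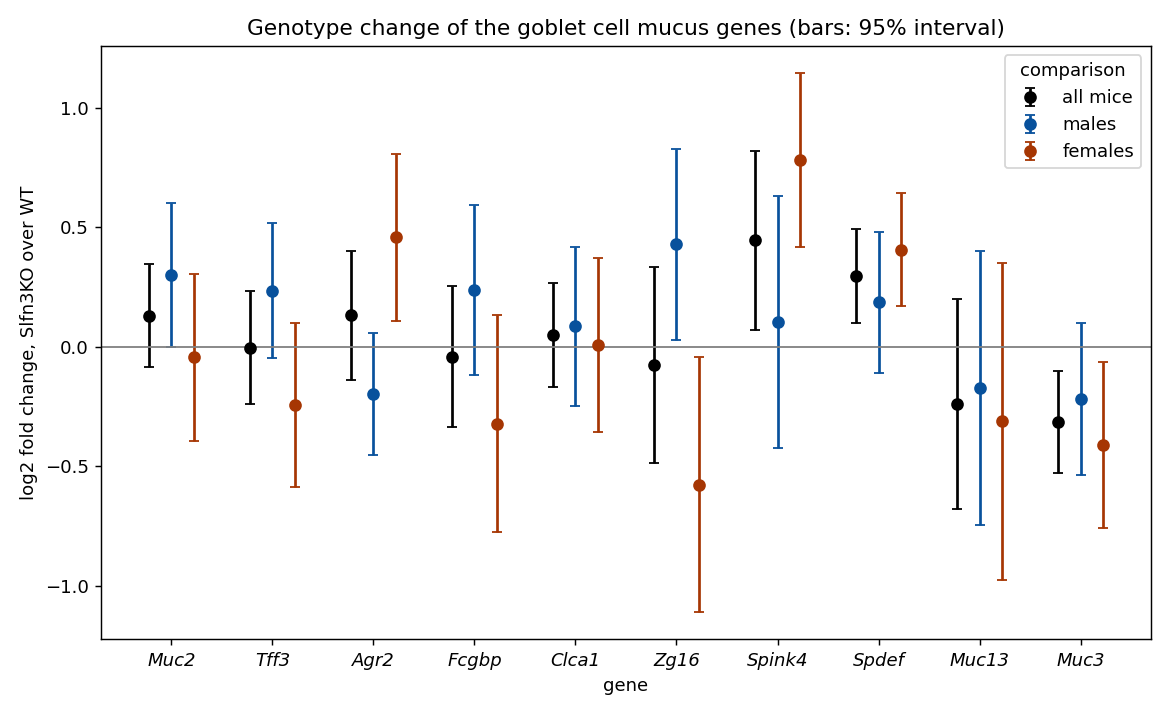
Log2 fold change of Slfn3KO over WT (vertical axis) for each gene (horizontal axis) over all mice, in males and in females. Points are edgeR estimates and bars their approximate 95% intervals, which are narrower than the test allows. The Zg16 bars run from 0.030 to 0.83 in males and from -1.11 to -0.044 in females. Its unadjusted p-value there was 0.065 and 0.064 (edgeR's quasi-likelihood test). Spink4 was at 0.78 in females and 0.10 in males, and Zg16 at -0.58 in females and 0.43 in males.

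Spink4 (ENSMUSG00000028415, mm10 chromosome 4, 40920052 to 40931395) had the largest log2 fold change of the 10 members, in females. In female Slfn3KO mice its level was 801, 837, 537 and 632 CPM in libraries 1 to 4, and in female WT mice 493, 369, 408 and 358 CPM. Every female Slfn3KO library was above every female WT library. The log2 fold change in females was 0.78 (standard error 0.185, 95% interval 0.42 to 1.14), a 1.72-fold difference, but its adjusted p was 0.236 with edgeR. DESeq2's Wald test gave 0.76 with an adjusted p of 0.00952, which made Spink4 the one member called by any test in any comparison. In males the level was 362, 504, 584 and 521 CPM in Slfn3KO and 667, 547, 351 and 281 CPM in WT libraries. The male groups overlapped, with the highest and the lowest value both in WT, and the log2 fold change was 0.10 (standard error 0.269, adjusted p = 0.963 with edgeR). It was -0.28 in males and 0.70 in females without the WT libraries 3 and 4, and over all mice it moved from 0.45 (standard error 0.191, adjusted p = 0.374) to 0.18.

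Spdef (ENSMUSG00000024215, chromosome 17, 27714352 to 27728951) is the transcription factor that directs goblet and Paneth cell maturation. Its level was 35.9, 35.5, 30.9 and 34.1 CPM in the female Slfn3KO libraries and 21.6, 30.1, 27.2 and 23.7 CPM in the female WT libraries. The lowest Slfn3KO value stood just above the highest WT value. In females the log2 fold change was 0.41 (standard error 0.120, adjusted p = 0.236 with edgeR). Male Slfn3KO libraries had 37.3, 25.4, 27.0 and 25.3 CPM and male WT libraries 29.7, 25.8, 23.2 and 22.8 CPM. Only the first male Slfn3KO library stood out from the rest, and without it the male log2 fold change of 0.19 was 0.032. Over all mice the value was 0.30 (standard error 0.0993, adjusted p = 0.327), and 0.23 without the WT libraries 3 and 4.

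Agr2 (ENSMUSG00000020581, chromosome 12, 35992907 to 36004087) encodes the disulfide isomerase that assists Muc2 folding. In female Slfn3KO libraries 1 to 4 its level was 910, 809, 590 and 717 CPM, and in female WT libraries 487, 602, 629 and 479 CPM. These groups overlapped in 1 Slfn3KO and 2 WT libraries, and the log2 fold change was 0.46 (standard error 0.177, adjusted p = 0.273 with edgeR). In males the groups overlapped, with 537, 509, 478 and 502 CPM in Slfn3KO and 732, 576, 529 and 494 CPM in WT libraries. There the log2 fold change was -0.20 (standard error 0.130, adjusted p = 0.925), or -0.34 without the WT libraries 3 and 4 and -0.084 without the first WT library. The level of the male Slfn3KO libraries was the tightest of the 4 groups, at 507 ± 24.0 CPM (SD, n = 4).

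Muc2 (ENSMUSG00000025515, chromosome 7, 141690340 to 141754693) differed little. Its level was 5339, 4461, 4028 and 4106 CPM in male Slfn3KO and 3443, 3332, 3835 and 3969 CPM in male WT libraries. All 4 male Slfn3KO libraries were above all 4 male WT libraries by a narrow gap that was lost with total counts alone, where the lowest Slfn3KO library had 3759.8 and the highest WT library 3995 CPM. The log2 fold change in males was 0.30 (standard error 0.153, 95% interval -0.00080 to 0.60, adjusted p = 0.925 with edgeR). In females the level was 3790, 4518, 4242 and 3817 CPM in Slfn3KO and 4629, 4676, 3385 and 4126 CPM in WT libraries, which overlapped. The log2 fold change was -0.043 in females (95% interval -0.39 to 0.31) and 0.13 over all mice (95% interval -0.086 to 0.34). The pooled and female intervals leave out a 1.5-fold difference in either direction, and the male interval does not.

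Zg16 (ENSMUSG00000049350, chromosome 7, 127050156 to 127051977) and Tff3 (ENSMUSG00000024029, chromosome 17, 31125306 to 31129646) had estimates of opposite sign in the labelled sexes. Zg16 was 7184, 6676, 5196 and 7005 CPM in male Slfn3KO and 4312, 5199, 3645 and 6245 CPM in male WT libraries. In female Slfn3KO libraries it was 3189, 4149.7, 4837 and 4142 CPM, and in female WT libraries 6528, 7968, 3496 and 6270.4 CPM. Thus 3 of 4 male Slfn3KO libraries were above every male WT library, and 3 of 4 female WT libraries were above every female Slfn3KO library. The log2 fold change was 0.43 in males (standard error 0.203, adjusted p = 0.925 with edgeR) and -0.58 in females (standard error 0.272, adjusted p = 0.302). For Tff3 the level was 2113, 1885, 1541 and 2033 CPM in male Slfn3KO, 1591, 1616, 1411 and 1826 CPM in male WT, 1473, 1598, 1608 and 1559 CPM in female Slfn3KO and 2092, 2156, 1384 and 1726 CPM in female WT libraries. Its groups overlapped in both sexes, with log2 fold changes of 0.24 in males (standard error 0.144) and -0.24 in females (standard error 0.175). Without the WT libraries 3 and 4 the female values were -0.83 for Zg16 and -0.45 for Tff3.

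The difference between the sexes was tested as the interaction, female minus male. Zg16 had an interaction of -0.99 on the log2 scale (standard error 0.337, adjusted p = 0.441 with edgeR), Agr2 of 0.67 (standard error 0.221, adjusted p = 0.441) and Tff3 of -0.47 (standard error 0.214, adjusted p = 0.447). These 3 of 10 members had an unadjusted p-value under 0.05, beside 11.1% of 14822 genes (1639). No member or other gene passed the adjusted threshold with edgeR (0%), and DESeq2 called 18 genes, none of them a member. With the WT libraries 3 and 4 left out the Zg16 interaction was -1.29 (adjusted p = 0.0528), 359 other genes passed the threshold, and 6 members had an unadjusted p-value under 0.05, beside 26.9% of genes. With those libraries left out the interaction was 0.83 for Agr2, -0.70 for Tff3 and 0.99 for Spink4.

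Fcgbp, a large mucus protein that binds to the Muc2 network, and Clca1 did not separate the genotypes. Fcgbp (ENSMUSG00000047730, chromosome 7, 28071236 to 28120862) was between 3915 and 6992 CPM in Slfn3KO and between 4523 and 7244 CPM in WT mice, with a log2 fold change of -0.041 over all mice (95% interval -0.34 to 0.25). That value joins estimates of opposite sign, 0.24 in males (standard error 0.181) and -0.32 in females (standard error 0.231), with an interaction of -0.55 (standard error 0.272, adjusted p = 0.461 with edgeR). A read of 50 bases could not be placed uniquely in 6.42% of its transcript positions, which are repeated in 9530053A07Rik and B230219D22Rik, so a small part of its counts is uncertain. The other 9 members shared no stretch of 50 bases with an annotated transcript of another gene. Repeats within a gene and copies outside annotated transcripts were not examined. Clca1 (ENSMUSG00000028255, chromosome 3, 145003817 to 145032776) was between 3224 and 4746 CPM in Slfn3KO and between 2619 and 4456 CPM in WT mice, with a log2 fold change of 0.048 (95% interval -0.17 to 0.26).

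Both membrane mucins were on the lower side in Slfn3KO mice. Muc3 (ENSMUSG00000037390, chromosome 5, 137134922 to 137149322) was 2277, 1829, 2118 and 2774 CPM in female Slfn3KO and 2909.7, 3284, 2701 and 3019 CPM in female WT libraries. Of the 4 Slfn3KO libraries, 3 were below every WT library. In males the level was 2818, 2340.0, 2451 and 2841 CPM in Slfn3KO and 2568, 2716, 3449.5 and 3424 CPM in WT libraries, where the 2 high values are the libraries with discordant sex transcripts. The log2 fold change was -0.41 in females (standard error 0.177, adjusted p = 0.288 with edgeR), -0.22 in males (standard error 0.163, adjusted p = 0.925) and -0.31 over all mice (standard error 0.109, adjusted p = 0.330). Without the WT libraries 3 and 4 these were -0.46 in females, 0.0054 in males and -0.24 over all mice. Muc3a, which has a gene model of its own, lay rather on the higher side with overlap, between 105 and 159 CPM in Slfn3KO and between 87.6 and 118 CPM in WT mice. In RefSeq the 250 bases before the start of Muc3 lie at 137166047 to 137166296. The RefSeq gene thus reaches beyond the counted model of Muc3, whose level may cover part of the gene only.

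Muc13 (ENSMUSG00000022824, chromosome 16, 33794037 to 33819934) had 2 libraries far below the rest. It was 1891 CPM in the first male Slfn3KO library and 2019 CPM in the second female WT library, and between 2976 and 6168 CPM in the remaining 14 libraries. The 2 low libraries belonged to opposite genotypes. Its log2 fold change over all mice was -0.24 (95% interval -0.68 to 0.20), and in males it was -0.17, or 0.053 without the first Slfn3KO library.

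The members did not vary as a single block across the mice. Among the 9 relations with Muc2 over the 16 mice, Tff3 (Pearson r = 0.73, permutation p = 0.00131, adjusted p = 0.0118, Spearman rho = 0.73, permutation p = 0.00214) and Zg16 (r = 0.63, permutation p = 0.00828, adjusted p = 0.0373, rho = 0.69, permutation p = 0.00438) had an adjusted p-value under 0.05. Without the 2 libraries farthest from the Muc2 median r was 0.72 and 0.68, and on deviations from the 4 group means it was 0.73 and 0.66. Without the WT libraries 3 and 4, which leaves 12 mice, r was 0.70 (permutation, adjusted p = 0.115) and 0.60 (adjusted p = 0.154), neither under the threshold. Over all 45 pairs, examined after the data were seen, 11 had an adjusted p-value under 0.05. The tightest pair was Tff3 and Zg16 (r = 0.93, permutation p = 1e-05, the smallest the permutations can give, adjusted p = 0.00045, rho = 0.95, permutation p = 1e-05, and r = 0.90 without the 2 farthest libraries). Fcgbp followed both, with r = 0.76 for Zg16 (permutation p = 0.00087, adjusted p = 0.00864, rho = 0.73, permutation p = 0.00167) and r = 0.70 for Tff3 (permutation p = 0.0033, adjusted p = 0.0186, rho = 0.71, permutation p = 0.00266), and r was 0.66 and 0.72 without the 2 farthest libraries. Clca1 had no pair under this threshold over all mice. On deviations from the group means, however, its r was -0.92 with Agr2 and -0.65 with Spink4, against -0.40 and -0.30 over all mice, given here as descriptions without a test.

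A second set was formed by Agr2 with Spdef (r = 0.74, permutation p = 0.00096, adjusted p = 0.00864, rho = 0.74, permutation p = 0.00127) and with Spink4 (r = 0.70, permutation p = 0.00265, adjusted p = 0.0170, rho = 0.58, permutation p = 0.0208). Without the 2 libraries farthest from the Agr2 median, r was 0.61 and 0.45, so the second relation leaned on those libraries. Agr2 ran against 2 genes of the first set, with r = -0.78 for Fcgbp (permutation p = 0.00044, adjusted p = 0.0066, rho = -0.69, permutation p = 0.00425) and r = -0.67 for Zg16 (permutation p = 0.00419, adjusted p = 0.0210, rho = -0.54, permutation p = 0.0332), which were -0.57 and -0.52 without the 2 farthest libraries and -0.71 and -0.42 on deviations from the group means. By rho the adjusted p for Zg16 was 0.0934 (permutation test). No other pair between the sets had an adjusted p-value under 0.05 by r. Agr2 had r = -0.28 with Muc2 and -0.45 with Tff3, and Spdef had r = 0.21 with Muc2, -0.12 with Tff3 and -0.29 with Zg16. Spink4 and Spdef had r = 0.52 (permutation p = 0.0399, adjusted p = 0.104, rho = 0.55, permutation p = 0.029), which was 0.33 without the 2 farthest libraries and 0.087 on deviations from the group means. Over all mice Spink4 had r = -0.48 with Zg16 and -0.34 with Tff3, which became -0.90 and -0.83 after leaving out the WT libraries 3 and 4. Muc3 ran against Spink4 with r = -0.81 (permutation p = 0.00013, adjusted p = 0.00293, rho = -0.80, permutation p = 0.00034), and r was -0.69 without the 2 farthest libraries, -0.65 on deviations from the group means and -0.71 without the WT libraries 3 and 4. Muc13 ran against Spdef with r = -0.62 (permutation p = 0.0096, adjusted p = 0.0393, rho = -0.60, permutation p = 0.0159), or -0.49 without the 2 farthest libraries.

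**Figure D3:**
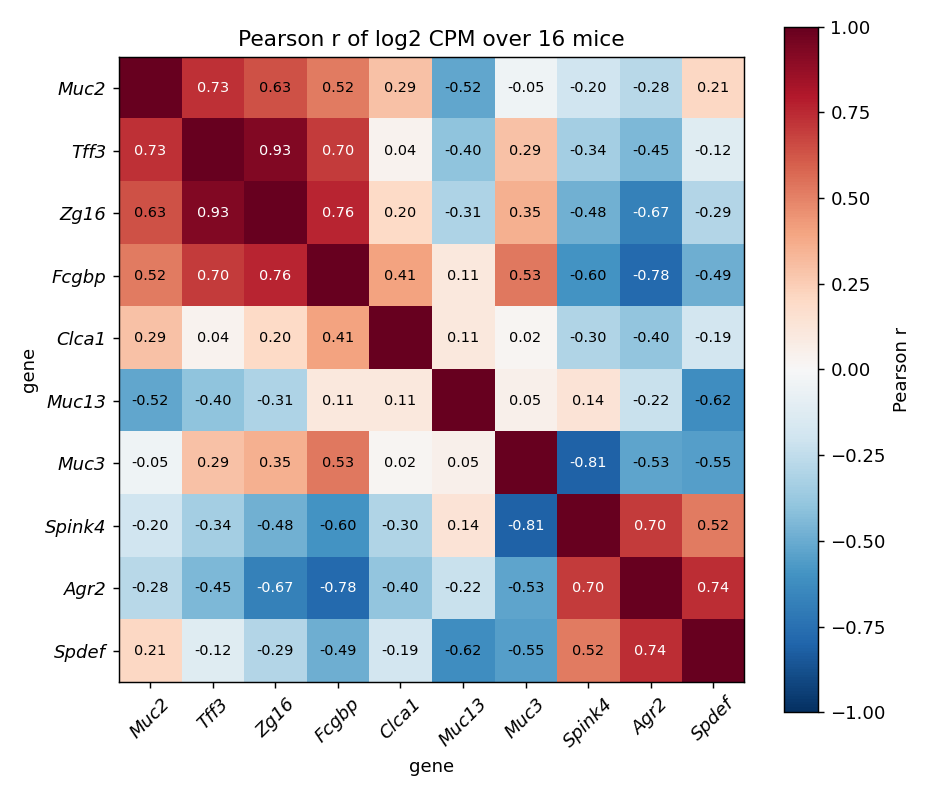
Pearson r of log2 CPM between each pair of the 10 genes over the 16 mice (genes on both axes, colour scale from -1 to 1). Muc2, Tff3, Zg16 and Fcgbp are positively related (r from 0.52 to 0.93), and Agr2 has r = 0.74 with Spdef and 0.70 with Spink4. The lowest of these values, 0.52 for Muc2 with Fcgbp, had an adjusted p-value of 0.104 (permutation test).

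Relations of the members to marker genes of other cells were examined after the data were seen. Paneth cells sit in the crypt base beside the stem cells and secrete antimicrobial granules. Their 8 markers were higher in Slfn3KO mice in 8 of 8 genes (median log2 fold change 1.08 over all mice and 1.62 in females, no gene called by edgeR, 7 and 8 of them with an unadjusted p-value under 0.05, where 11.9% and 17.1% of all genes had one), and Lyz1 was the most abundant. Without the WT libraries 3 and 4 the median was 0.74 over all mice and 2.11 in females, and in males it went from 0.47 to -0.21, with 6 of 8 genes lower. Summed, they were between 6795 and 13786 CPM in female Slfn3KO, 1235 and 5889.5 CPM in female WT, 5119 and 7122 CPM in male Slfn3KO and 1312 and 8519.6 CPM in male WT mice. Their mean log2 CPM was positively related to Spink4 (r = 0.78, permutation p = 0.00032, adjusted over 40 relations 0.00427, rho = 0.89, permutation p = 2e-05), Spdef (r = 0.76, permutation p = 0.00058, adjusted p = 0.00496, rho = 0.69, permutation p = 0.00457) and Agr2 (r = 0.70, permutation p = 0.00263, adjusted p = 0.00956, rho = 0.65, permutation p = 0.00776), and negatively to Muc3 (r = -0.79, permutation p = 0.00022, adjusted p = 0.00427, rho = -0.85, permutation p = 7e-05). Without the 2 libraries farthest from the median of the score, r was 0.93 for Spink4, 0.66 for Spdef, 0.74 for Agr2 and -0.81 for Muc3. On deviations from the group means these were 0.61, 0.55, 0.77 and -0.57. Leaving out the WT libraries 3 and 4 gave 0.68, 0.66, 0.68 and -0.66. Fcgbp was also negatively related to the score (r = -0.62, adjusted p = 0.028, by rho 0.0571, permutation tests). The part of these cells in the Spink4, Spdef, Agr2, Muc3 and Fcgbp values was not tested.

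Zg16 and Tff3 moved with the markers of the proximal small intestine (Slc5a1 the most abundant). Their mean log2 CPM had r = 0.78 with Zg16 (permutation p = 0.00062, adjusted p = 0.00496, rho = 0.74, permutation p = 0.00145) and r = 0.71 with Tff3 (permutation p = 0.00246, adjusted p = 0.00956, rho = 0.70, permutation p = 0.00338), and 0.71 and 0.70 without the 2 farthest libraries. These markers summed to between 1091 and 2757 CPM in female Slfn3KO and between 1773 and 9308 CPM in female WT mice, and to between 2387 and 8137 CPM in male Slfn3KO and between 2169 and 6782 CPM in male WT mice. Summed stem and cycling cell markers did not overlap between the female groups, where 8.16% of single genes did not. They were at 417 to 552 CPM in Slfn3KO and 105 to 388 CPM in WT mice. In females 5 of 5 genes were higher, 4 at an unadjusted p-value under 0.05, where 17.1% of all genes were. Without the WT libraries whose sex transcripts went against the label, 5 of 5 were still higher, 2 under 0.05, beside 24% of genes. In males 4 of 5 stem and cycling cell markers were then lower, 2 of them under 0.05, beside 7.14% of genes. Their mean log2 CPM had r = 0.77 with Spdef (permutation p = 0.00014, adjusted p = 0.00427, rho = 0.78, permutation p = 0.00056) and r = -0.69 with Fcgbp (permutation p = 0.00215, adjusted p = 0.00956, rho = -0.80, permutation p = 0.00028), or 0.72 and -0.76 without the 2 farthest libraries. Agr2 (r = 0.64), Spink4 (r = 0.60) and Muc3 (r = -0.61) were also under the threshold. The part of these cells in the members' values was not tested. The part of sampling position in the Zg16 and Tff3 values was not tested. With the distal minus the proximal marker score as a covariate the pooled log2 fold change of Zg16 was 0.031, beside -0.075 (standard error 0.209) without it. This fit pooled the labelled sexes, so it does not address the opposite estimates of Zg16 in males and females. Of the 40 relations between members and the Paneth, stem and cycling, enterocyte and proximal markers, 19 had an adjusted p-value under 0.05, and Muc2, Clca1 and Muc13 were in none of them. Fcgbp (r = 0.59) and Agr2 (r = -0.62) were also under this threshold for the proximal markers. These relations leaned on the 2 farthest libraries, without which r was 0.34 and -0.35. On deviations from the group means r was 0.48 and -0.35. The enterocyte markers had much the same relations, with r = 0.72 for Zg16, 0.62 for Tff3, 0.73 for Fcgbp and -0.72 for Agr2, all under the threshold. Without the 2 farthest libraries these were 0.68, 0.68, 0.50 and -0.39. Spdef was also under the threshold for the enterocyte markers (r = -0.61, or -0.37 without the 2 farthest libraries), but not for the proximal markers (r = -0.51).

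Estimates for the B cell and follicle markers were lower in Slfn3KO mice in 9 of 9 genes over all mice (median log2 fold change -3.01, all 9 with an unadjusted p-value under 0.05 beside 11.9% of all genes, none called by edgeR). The direction turned after leaving out the WT libraries 3 and 4: all 9 estimates were then higher in Slfn3KO mice, with a median of 0.16 and none at an unadjusted p-value under 0.05. With their score as a covariate 0 of the 10 members had an unadjusted p-value under 0.05 over all mice, where 4.59% of all genes had one, and the log2 fold change of Spink4 was 0.32, of Spdef 0.22 and of Muc3 -0.23. Their part in these values was not tested further. Summed levels of the other marker lists overlapped between all Slfn3KO and all WT mice: enterocyte (14435 to 59781 and 24654 to 71097 CPM), distal small intestine (5315 to 16562 and 4111 to 19426 CPM), colon (272 to 419 and 292 to 475 CPM), stem and cycling cell (262 to 552 and 105 to 462 CPM), tuft cell (32.6 to 64.1 and 27.7 to 54.3 CPM), enteroendocrine (158 to 228 and 107 to 220.5 CPM), T cell (39.4 to 109 and 36.8 to 174 CPM), plasma cell (267 to 912 and 288 to 786 CPM) and muscle and stroma (16.1 to 103 and 10.6 to 108 CPM).

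**Figure D4:**
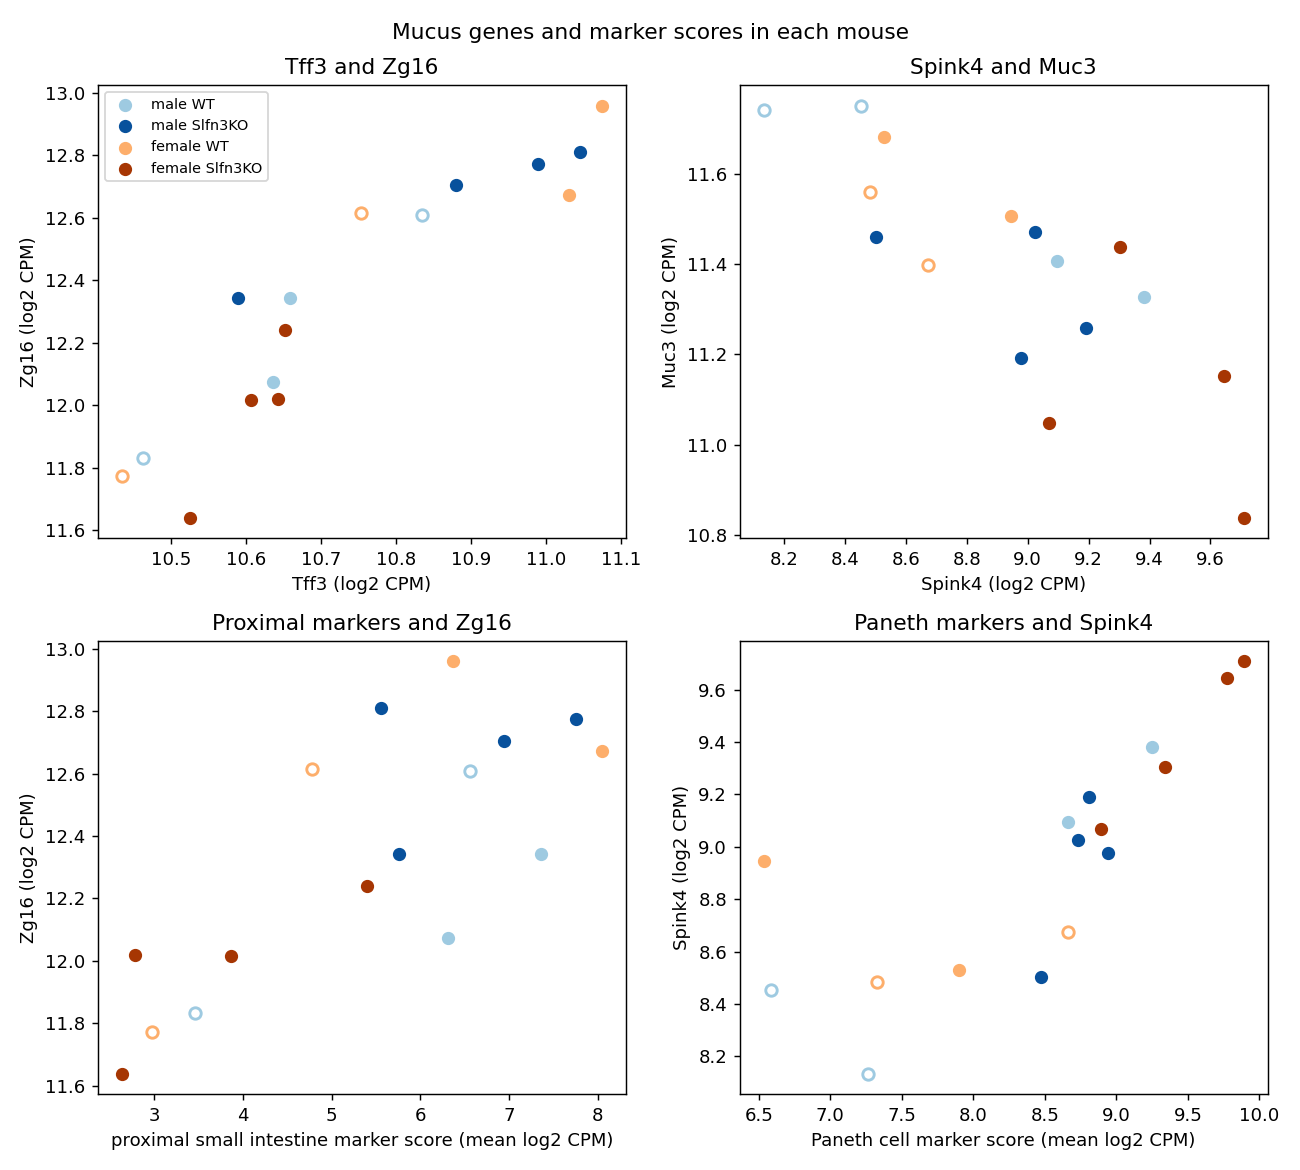
Each point is a mouse, coloured by labelled sex and genotype, with open points for WT libraries 3 and 4. Axes are log2 CPM of a gene or the mean log2 CPM of a marker list. Tff3 and Zg16 increase together (r = 0.93), Spink4 and Muc3 run against each other (r = -0.81), Zg16 follows the proximal small intestine markers (r = 0.78) and Spink4 the Paneth cell markers (r = 0.78).

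Genes that serve the same secretory pathway were read as lists, and none of their genes passed the adjusted threshold in any comparison of all libraries (0% of all genes). Of 11 goblet cell transcription factors, 9 were higher and 2 lower in Slfn3KO mice over all mice, with a median log2 fold change of 0.20 beside -0.0037 over all genes. Of these, 4 had an unadjusted p-value under 0.05, all higher, where 4.84% of genes did. Without the WT libraries 3 and 4, 8 were higher and 3 lower with a median of 0.19. Only 1 then had an unadjusted p-value under 0.05, beside 5.8% of all genes in either direction. Over all mice Sox9, a factor of crypt progenitors and Paneth cells, was highest at 0.82 (standard error 0.288, adjusted p = 0.330 with edgeR), and Klf4, which marks maturing goblet cells, was lowest at -0.29 (standard error 0.225). Atoh1, the factor that commits cells to the secretory fate, averaged 33.7 ± 5.46 CPM over the 8 Slfn3KO mice and 29.4 ± 6.13 CPM over the 8 WT mice (SD), and its log2 fold change was 0.20 (95% interval -0.043 to 0.44).

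Mucin folding and endoplasmic reticulum stress genes were at a median log2 fold change of -0.090 over all mice, with 3 of 11 higher and 8 lower. In males 8 of 11 were lower, 4 of them with an unadjusted p-value under 0.05 beside 3.84% of all genes. The summed level in males was 1038 to 1246 CPM in Slfn3KO and 1396 to 1539.8 CPM in WT mice, without overlap, as in 2.34% of single genes. Leaving out the WT libraries 3 and 4, 8 of 11 were again lower in males. Then 2 lower genes and 1 higher gene had an unadjusted p-value under 0.05, beside 7.14% of all genes. With all libraries, 6 were higher and 5 lower in females. In the interaction of all libraries 9 of 11 were higher, 4 of them with an unadjusted p-value under 0.05 beside 11.1% of all genes. In the interaction with the WT libraries 3 and 4 left out, the disulfide isomerases Pdia4 (0.86, adjusted p = 0.0441 with edgeR) and Pdia6 (1.17, adjusted p = 0.0441) were among the 359 genes called. Pdia5 was highest at 0.28 (standard error 0.182), and Hspa5, the main chaperone of this compartment, was lowest at -0.20 (standard error 0.108). Ern2, the stress sensor found in goblet cells, averaged 29.3 ± 3.98 CPM over the 8 Slfn3KO mice and 24.5 ± 2.13 CPM over the 8 WT mice (SD), and its estimate was 0.25 (standard error 0.0795, adjusted p = 0.327 with edgeR). Of 16 tested mucin O-glycosylation genes 7 were higher and 9 lower, with a median of -0.015. Galnt12, one of the enzymes that start O-glycans, was highest at 0.25 (standard error 0.0742, adjusted p = 0.327), and the fucosyltransferase Fut2 was lowest at -1.27 (standard error 1.10), with levels from 0.513 to 227 CPM. The core 3 enzyme B3gnt6 was at -0.051 (standard error 0.134).

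Other goblet cell products and markers were mostly on the higher side, with 15 of 17 tested genes higher over all mice (median log2 fold change 0.18), where 49.3% of all genes were higher, and 5 of them with an unadjusted p-value under 0.05, where 4.84% of all genes were higher with one. With the WT libraries 3 and 4 left out, 12 of 17 were higher with a median of 0.045. Ang4, an antimicrobial ribonuclease that is also on the Paneth cell list, was highest at 1.397 (standard error 0.375, adjusted p = 0.327 with edgeR), averaging 88.2 ± 57.8 CPM over the 8 WT and 228 ± 79.1 CPM over the 8 Slfn3KO mice (SD). Lypd8, an anchored protein that keeps bacteria from the epithelium, was lowest at -0.15 (standard error 0.211). Retnlb, a goblet cell product made in response to helminths and bacteria, was near the floor, between 0 and 5.37 CPM, and its estimate was 0.84 (standard error 1.39). It was also among the 359 genes called in the interaction with the WT libraries 3 and 4 left out (adjusted p = 0.0453 with edgeR), with male Slfn3KO levels of at most 0.141 CPM.

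Among the other membrane mucins 2 of 7 passed the filter, Muc4 at -0.38 (standard error 0.402) and the mucin-like cadherin Cdhr5 at -0.20 (standard error 0.152). Of 8 tested genes for mucus release, processing and hydration, 2 were higher and 6 lower (median -0.16), from the chloride channel Cftr at 0.60 (standard error 0.229, adjusted p = 0.335 with edgeR) to the sodium-proton exchanger Slc9a3 at -0.34 (standard error 0.541). Type 2 cytokines, which act upstream of goblet cell expansion, left 2 of 8 genes for testing, Il4ra at -0.30 (standard error 0.170) and Il33 at -0.25 (standard error 0.677), and Il13 and Il4 were at most 0.0422 and 0.0872 CPM.

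Outside the members, the 5 genes whose level most resembled that of Muc2 over the 16 mice were Fbxo46 (r = 0.89), Fbxl16 (r = 0.88), Mical3 (r = 0.88), Tns2 (r = 0.85) and Dstyk (r = 0.82). All 5 lay closer to Muc2 than Tff3 did. These values describe the 16 libraries, which share their depth scaling, and were taken as the highest of all genes tested.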

How the data were processed

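RNA from ileum mucosa of 16 mice was sequenced by the authors as single-end reads, 1 library per mouse, and read counts per gene were deposited as 1 table for all libraries. The deposited counts are raw and come, per the file headers, from reverse-stranded counting with featureCounts over mm10 exons. The submitters' notes name featureCounts 1.4.6 and DESeq2 1.22.2, whereas the study's methods name STAR and HTSeq. All columns were mapped to a sample by title.

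Counts were tested with edgeR 4.0.16 (R 4.3.3) by quasi-likelihood F test with TMM factors, filterByExpr, robust dispersion and Benjamini-Hochberg adjustment. Sex was a covariate in the fit of all mice. A call was an adjusted p-value under 0.05 with at least 1.5-fold. Standard errors were taken from F as |log2 fold change|/sqrt(F), and intervals are 1.96 standard errors. These intervals are approximate. With few mice they are narrower than the F test allows, so an interval can exclude no difference at an unadjusted p-value above 0.05. CPM levels used library totals multiplied by TMM factors, and CPM per kb the exon length deposited with the table. The overlap of groups was repeated with total counts alone, and the lists without the WT libraries 3 and 4, both chosen after seeing the data. Correlations used log2 CPM (TMM, prior count 2) and two-sided tests with 100000 permutations. Depth was between 20823279 and 30813117 counts, floors cover counting error only, and each library is from a separate mouse by the study's methods. The fits and the permutation test were tested on simulated data.

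Alternatives were DESeq2 1.42.0, other factors and filters, total counts alone, leaving out each library, leaving out the WT libraries 3 and 4, marker scores as covariates and a replicate block. Deviations of same-numbered libraries of the 2 genotypes were positively correlated in males (0.23, 0.32, 0.52 and 0.14 for numbers 1 to 4). In females the correlations were -0.36, 0.14, -0.34 and -0.11. Differently numbered libraries were not compared, so these values do not show a pairing, and the labels do not say what a number marks.

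All 10 members were named, and of each pathway list the tested genes with the highest and the lowest log2 fold change over all mice, Atoh1, Ern2, Retnlb, Fut2, B3gnt6 and Muc4, and the 5 genes most like Muc2. Il13, Il4, Pdia4 and Pdia6 were added after their values were seen. Members and lists were chosen with earlier results of these data known. Promoters are from RefSeq (GRCm38.p6), gene positions from the deposited table (mm10), and overlapping genes were looked up in GENCODE M21. The level of 1 marker gene, and the summed level of its list, are not reported here.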

Additional observations from a re-analysis of the deposited data

Results flagged for a closer look

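Of 40 sets of 4 libraries (10 genes in 4 groups), 2 held a library far from the other 3, and chance flags about 1 set in 20. Fcgbp was 4949 CPM in the third male Slfn3KO library, against 6694 to 6992 CPM in the other libraries of that group. Spdef was 37.3 CPM in the first male Slfn3KO library, against 25.3 to 27.0 CPM in the other libraries of that group.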

How the results depend on the processing

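With edgeR no member was called under any alternative. By an unadjusted p-value under 0.05 with 1.5-fold, 984 genes passed over all mice, 272 in males, 1366 in females and 946 in the interaction, and DESeq2 called 78, 20, 530 and 18. Among members DESeq2 called Spink4 in females. Leaving out the WT libraries 3 and 4 gave 359 genes in the interaction and 0 of 9 relations with Muc2 (2 with all mice), and log2 fold changes of -0.28 for Spink4 and 0.0054 for Muc3 in males and 0.053 for the Muc13 interaction. Estimates near 0 changed sign. With total counts alone, which moved the median of all genes to 0.076 over all mice, 0.14 in females and 0.13 in the interaction, Tff3 was 0.085, Fcgbp 0.036 and Zg16 0.014 over all mice, Muc2 0.12 in females, and the interaction 0.040 for Clca1 and 0.022 for Muc13. With the distal minus the proximal marker score as covariate Tff3 was 0.052 and Zg16 0.031. Clca1 in females was -0.0061 with RLE factors and -0.0088 with DESeq2. The r of Muc3 with Muc2 was 0.0044 with RLE factors, 0.081 without the WT libraries 3 and 4 and 0.22 on deviations from the group means, and that of Spdef -0.12 without the 2 farthest libraries. The cause was not tested.

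With the replicate block, which pairs same-numbered libraries, 0 genes were called in every comparison, with an unadjusted p-value under 0.05 in 10.9% of genes over all mice, 6.63% in males, 9.29% in females and 7.47% in the interaction. Members with one were then 2 over all mice (3 without the block), 1 in males (Zg16, 0 without), 2 in females (4 without) and 2 in the interaction (3 without). Tff3 was then 0.0056 over all mice, Clca1 -0.0013 in females and the Muc13 interaction 0.019, and the block changed no other call. Leaving out each library in turn gave 0 calls in every comparison. Over all mice the log2 fold change ran from -0.052 to 0.047 for Tff3, -0.11 to 0.023 for Fcgbp, -0.17 to 0.028 for Zg16 and -0.014 to 0.083 for Clca1. It ran in males from -0.029 to 0.17 for Clca1, -0.28 to 0.053 for Muc13 and -0.071 to 0.32 for Spink4, in females from -0.093 to 0.094 for Clca1 and -0.13 to 0.0090 for Muc2, and in the interaction from -0.19 to 0.030 for Clca1 and -0.40 to 0.032 for Muc13.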
